A study of Mus musculus with 16 samples.

Results

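The genes described here encode the proteins of oxidative phosphorylation, with a few assembly factors that share their names, and were followed in 16 mRNA libraries of the mouse myoblast line C2C12. They were taken by name: every row whose symbol begins with Ndufa, Ndufb, Ndufc, Ndufs, Ndufv, Uqcr, Cox4 to Cox8 or Atp5, together with Sdha to Sdhd and Cyc1, and the protein-coding genes of mitochondrial DNA. This gave 105 genes of the 31053 in the table, of which 92 matched by symbol. The other 13, the mitochondria-encoded genes, are listed without the mt- prefix and were matched by their Ensembl identifiers. There are 35 nuclear genes for complex I, 4 for complex II, 9 for complex III, 20 for complex IV and 15 for complex V. A further 7 are complex I assembly factors (Ndufaf1 to Ndufaf7), and Atp5s and Atp5sl are not core subunits. A gene was tested if 4 or more samples reached 10 normalized counts, and 97 of the 105 genes passed, 86 of them nuclear and 11 mitochondria-encoded.

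The study compared C2C12 cells, a line of mouse muscle precursors, with the same line after knockout of Fam134b, a receptor that delivers endoplasmic reticulum to lysosomes, before and after differentiation. There were 4 samples each of myoblasts and of myotubes from WT and from Fam134b KO cells, described in the labels as biological replicates. Cells of all groups were grown in DMEM with FBS, and myotubes formed on their own once the cultures were confluent. The knockout was made with lentiviral CRISPR-Cas9, and whether the KO cells are a clone or a pool is not stated. The labels give no day of harvest. They do not say whether replicates came from separate cultures, so p-values measure only the spread between these samples.

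Oxidative phosphorylation passes electrons from NADH through complex I, or from succinate through complex II, to complex III and then, by cytochrome c, to complex IV, where oxygen is reduced. The proton gradient built up on the way drives complex V, the ATP synthase. Most subunits are encoded in the nucleus, whereas the core membrane subunits of complexes I, III and IV and parts of complex V are encoded in mitochondrial DNA; complex II is wholly nuclear. In heart and skeletal muscle, several small subunits of complex IV, cytochrome c oxidase, are made from muscle isoform genes, Cox6a2, Cox7a1 and Cox8b, in place of or beside the widely expressed Cox6a1, Cox7a2 and Cox8a.

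Between 1484750 and 3287461 reads were counted on genes per sample, and 3 reads corresponded to a normalized count of 2.49 to 5.99. Fam134b itself (chr15:25843180-25973687, plus strand) was at 207 ± 42.0 normalized counts in WT myoblasts and 232 ± 61.6 in WT myotubes, against 27.5 ± 5.49 in KO myoblasts and 41.8 ± 14.0 in KO myotubes (mean ± SD, n = 4 here and throughout). The 9 markers of differentiated muscle ranged in their sum from 1846 to 2740 normalized counts among WT myoblasts and from 28485 to 42859 among WT myotubes. Among KO myoblasts, where Myog was at 0, the range was 17.5 to 23.2, and among KO myotubes it was 12345 to 16605. The KO myoblasts therefore started from a far lower level of these markers than the WT myoblasts, and the KO myotubes ended lower than the WT myotubes. Markers of proliferating cells summed to 4223 to 4904, 2142 to 3547, 3497 to 5245 and 864 to 1447 in the same order of groups. Of the 6 adipocyte markers, Adipoq, Plin1, Ucp1 and Lep were at 0 in all samples, Cidea had at most 1 read, and Cebpa was at 70.5 ± 8.42, 49.1 ± 6.60, 60.7 ± 2.80 and 44.2 ± 7.57 normalized counts in the same order. KO myotube samples 2 and 4 had the fewest reads, 1790524 and 1484750, and the widest deviation from their group, so results are also given without this pair where they changed.

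The levels of the muscle isoforms of cytochrome c oxidase differed between groups more than those of their widely expressed counterparts. All 3 genes lie on chromosome 7 of GRCm38, Cox6a2 at chr7:128205435-128206387 (minus strand), Cox7a1 at chr7:30184144-30186078 (plus strand) and Cox8b at chr7:140898945-140900446 (minus strand). None of their transcripts shares a stretch of 31 bases with another gene. The promoters of Cox7a1 (chr7:30183921-30184220, plus strand) and Cox8b (chr7:140900397-140900696, minus strand) are shown because both genes rose on differentiation in both genotypes. They are RefSeq sequences of GRCm38.p6 from 250 bases before to 50 bases after the start site, written 5′ to 3′ along the gene's strand, with capitals marking the E-boxes (CANNTG, which reads the same on both strands), the motif bound by myogenic bHLH factors.
Cox7a1 promoter: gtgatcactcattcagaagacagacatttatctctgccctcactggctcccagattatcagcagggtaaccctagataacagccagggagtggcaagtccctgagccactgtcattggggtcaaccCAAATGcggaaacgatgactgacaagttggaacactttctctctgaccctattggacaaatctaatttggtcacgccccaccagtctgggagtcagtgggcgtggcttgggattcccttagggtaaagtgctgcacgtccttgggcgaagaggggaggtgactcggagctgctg
Cox8b promoter: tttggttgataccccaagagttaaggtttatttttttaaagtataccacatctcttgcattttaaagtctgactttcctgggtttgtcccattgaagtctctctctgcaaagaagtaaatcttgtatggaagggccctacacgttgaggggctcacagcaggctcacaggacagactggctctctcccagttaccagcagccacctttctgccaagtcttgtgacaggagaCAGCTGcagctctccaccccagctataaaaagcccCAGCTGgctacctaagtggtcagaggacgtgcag
The Cox7a1 window holds 1 E-box, which begins 124 bases before the start site, and the Cox8b window holds 2, both CAGCTG, beginning 19 bases before the start site and at base 17 after it. These are matches of letters. An E-box was found in 72.1% of the 27025 mouse promoters of the same length, and CAGCTG in 16.1%. Cox6a2 is not shown.

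Cox6a2 encodes the muscle isoform of subunit VIa. Its normalized counts were 14.8, 25.1, 20.0 and 13.4 in WT myoblasts and 428, 355, 637 and 402 in WT myotubes. They were 35.9, 38.2, 37.3 and 37.5 in KO myoblasts and 114, 58.4, 202 and 192 in KO myotubes. Each KO myoblast sample was above each WT myoblast sample, each KO myotube sample was below each WT myotube sample, and myotubes did not overlap with myoblasts in either genotype. The mean rose 24.9-fold on differentiation of WT cells and 3.81-fold on differentiation of KO cells. It was 2.03-fold higher in KO than in WT myoblasts and 3.21-fold lower in KO than in WT myotubes. On the log2 scale the changes were 4.57 ± 0.31 (SE; adjusted p = 7.28e-10) in WT cells and 1.74 ± 0.31 (adjusted p = 1.62e-04) in KO cells, and the KO to WT differences were 1.03 ± 0.31 in myoblasts (adjusted p = 0.0243) and -1.80 ± 0.31 in myotubes (adjusted p = 2.26e-04), all from limma with Benjamini-Hochberg adjustment over the 10767 genes tested. The difference in myoblasts was no longer called without WT myoblast sample 1 (0.94, adjusted p = 0.0717) or 4 (0.90, adjusted p = 0.0833) or without KO myoblast sample 3 (1.02, adjusted p = 0.0516) or 4 (1.02, adjusted p = 0.0538).

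Cox7a1 encodes the muscle isoform of subunit VIIa. Its normalized counts were 23.1, 14.5, 29.0 and 19.6 in WT myoblasts and 71.7, 53.1, 53.0 and 64.4 in WT myotubes. They were 4.37, 1.66, 6.07 and 4.17 in KO myoblasts and 21.3, 5.84, 26.1 and 20.0 in KO myotubes. KO samples were below all WT samples of the same stage, and the stages overlapped in KO cells because KO myotube sample 2 (5.84) was below the highest KO myoblast (6.07). Cox7a1 rose 2.81-fold in WT cells (log2 change 1.48 ± 0.40, adjusted p = 0.0110) and 4.50-fold in KO cells (1.84 ± 0.40, adjusted p = 0.00133; limma with Benjamini-Hochberg adjustment here and below). It was 5.29-fold lower in KO myoblasts (-2.20 ± 0.40, adjusted p = 4.04e-04) and 3.31-fold lower in KO myotubes (-1.83 ± 0.40, adjusted p = 0.00216). The latter difference was -1.31 (adjusted p = 0.0164) without KO myotube samples 2 and 4. KO myoblasts had only 2 to 7 reads of Cox7a1, so sizes relative to them depend on the constant added before the log2 step. With 0.5 and 5 the difference in myoblasts was -2.33 and -1.54, and the rise in KO cells was 1.97 and 1.28.

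Cox8b encodes the muscle isoform of subunit VIII. No read was counted on it in any KO myoblast sample. Its normalized counts were 15.7, 23.1, 16 and 20.5 in WT myoblasts, 221, 155, 298 and 216 in WT myotubes and 57.1, 68.6, 45.0 and 71.9 in KO myotubes, so none of the 4 groups overlapped with another. The mean rose 11.8-fold in WT cells (3.47 ± 0.28, adjusted p = 8.96e-09). Taking 3 reads in a library as the floor (2.62 normalized counts in KO myoblasts), it was at least 23.1-fold higher in KO myotubes than in KO myoblasts and at least 7.18-fold higher in WT than in KO myoblasts, and both differences were called (adjusted p = 3.50e-13 and 1.36e-10). It was 3.67-fold lower in KO than in WT myotubes (-1.84 ± 0.28, adjusted p = 6.09e-05). In bulk samples, fewer cells of a type and less RNA per cell cannot be told apart. The muscle marker sums given above moved in the same direction as Cox7a1 and Cox8b in all 4 comparisons, and as Cox6a2 in all but the myoblasts, and their part in these results was not tested.

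**Figure D1:**
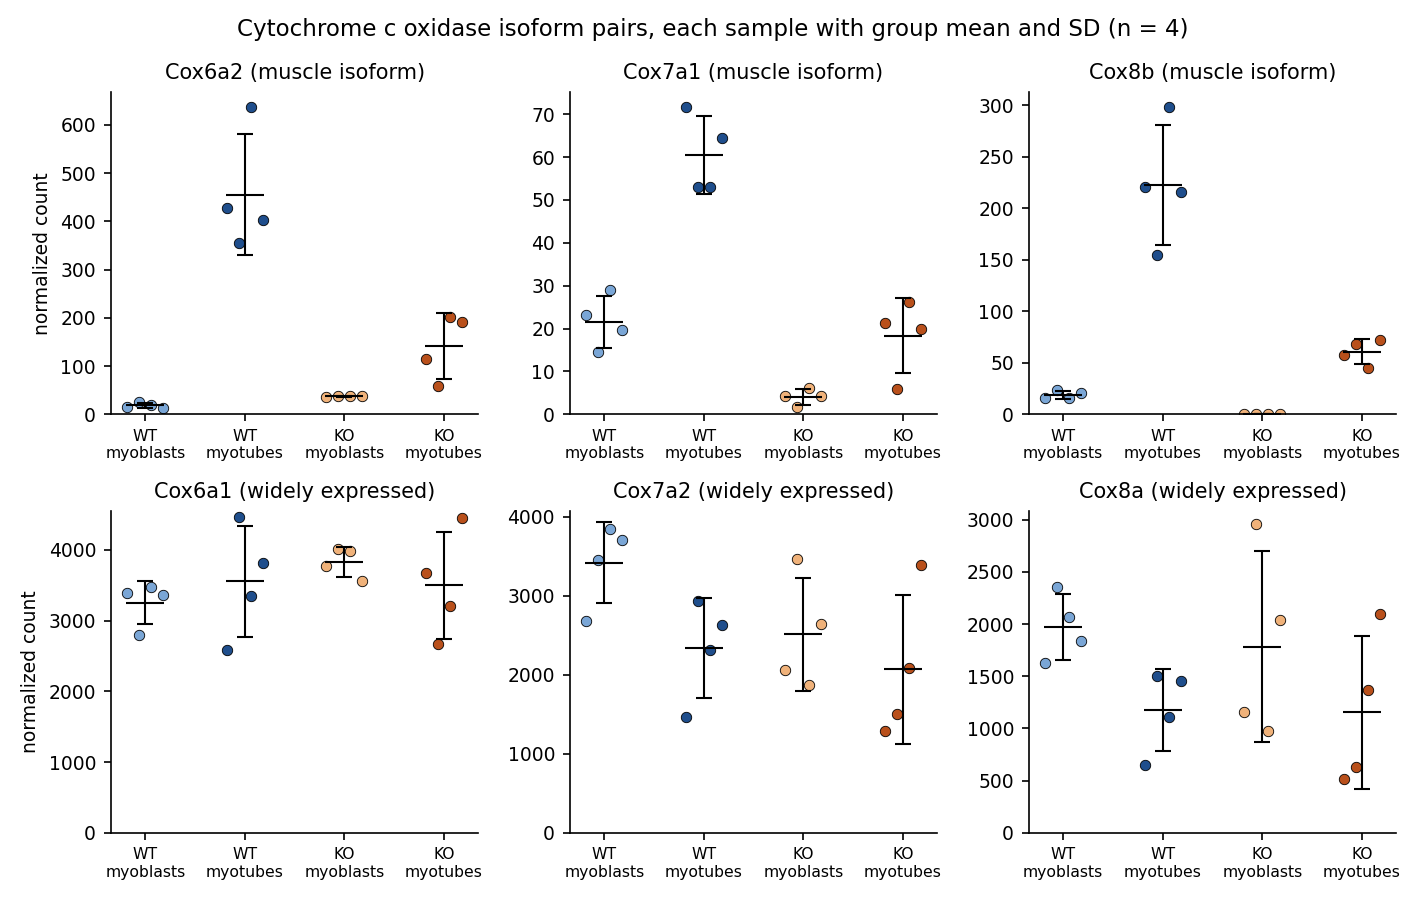
Normalized counts of the muscle isoforms (top) and the widely expressed isoforms (bottom) of 3 cytochrome c oxidase subunits in each sample, with the group mean and SD (n = 4) and linear axes that start at 0. The muscle isoforms stand highest in WT myotubes, at means of 456, 60.5 and 223, and Cox8b is at 0 in KO myoblasts, while the widely expressed isoforms overlap between WT and KO myotubes.

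The widely expressed counterparts behaved otherwise. Cox6a1 was at 3256 ± 308, 3554 ± 789, 3832 ± 209 and 3503 ± 756 normalized counts in WT myoblasts, WT myotubes, KO myoblasts and KO myotubes, and none of its comparisons was called, although all KO myoblasts (3561 to 4011) were above all WT myoblasts (2799 to 3473). Its log2 change on differentiation was 0.10 in WT cells (95% interval -0.29 to 0.50) and -0.15 in KO cells (-0.55 to 0.24). Cox7a2 (-0.58, interval -1.15 to -0.02, in WT cells) and Cox8a (-0.80, interval -1.59 to -0.02) were not called on differentiation of WT cells either, with adjusted p of 0.127 and 0.132, although the WT stages of Cox8a did not overlap. In KO cells the same values were -0.34 (-0.91 to 0.22) and -0.71 (-1.50 to 0.08). Between genotypes the intervals of all 3 genes included 0 at both stages.

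Read against its counterpart, each muscle isoform remained the minor share. Cox6a2 made up 0.573 ± 0.224% of the reads of Cox6a2 and Cox6a1 together in WT myoblasts and 11.8 ± 3.99% in WT myotubes, against 0.964 ± 0.0534% and 3.80 ± 1.63% in KO cells. Cox8b made up 0.950 ± 0.136% of its pair with Cox8a in WT myoblasts and 17.2 ± 7.39% in WT myotubes, where the samples ranged from 9.35% to 25.4%. In KO cells the Cox8b share went from 0 to 6.54 ± 3.80%. Cox7a1 stayed lowest, at 0.636 ± 0.199% and 2.77 ± 1.29% in WT cells and 0.185 ± 0.115% and 0.959 ± 0.576% in KO cells. These are shares of reads, not corrected for transcript length. The ranges of Cox6a2 in WT myotubes (7.37% to 16%) and KO myotubes (2.14% to 5.93%) did not overlap, whereas those of Cox8b did (9.35% to 25.4% and 3.19% to 9.92%).

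Other complex IV isoforms gave little signal or no call. Cox4i2, the isoform of subunit IV linked to low oxygen, reached at most 4.38 normalized counts in any sample and was not tested, whereas its counterpart Cox4i1 was at 4202 ± 941, 4426 ± 1842, 4386 ± 539 and 3408 ± 763 in the 4 groups and was not called in any comparison. Ndufa4, a subunit of complex IV despite its name, was not called in any comparison, with a KO differentiation change of -0.52 (adjusted p = 0.0834), and its relative Ndufa4l2 did not exceed 5.58. Cox7a2l, a factor that joins complexes III and IV, had its largest difference in KO against WT myotubes (0.48, interval 0.04 to 0.93, adjusted p = 0.111).

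The mitochondria-encoded members took 0.854% to 1.87% of all reads in WT myoblasts and 2.20% to 4.39% in WT myotubes, which did not overlap. In KO cells the ranges were 0.364% to 2.05% and 1.46% to 3.90%, which did overlap. Nuclear members together took 3.81 ± 0.219%, 3.59 ± 0.290%, 3.70 ± 0.243% and 3.15 ± 0.330% in WT myoblasts, WT myotubes, KO myoblasts and KO myotubes. Thus the nuclear share stayed between 2.86% and 3.99% over the 16 samples while the mitochondrial share ranged from 0.364% to 4.39%.

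**Figure D2:**
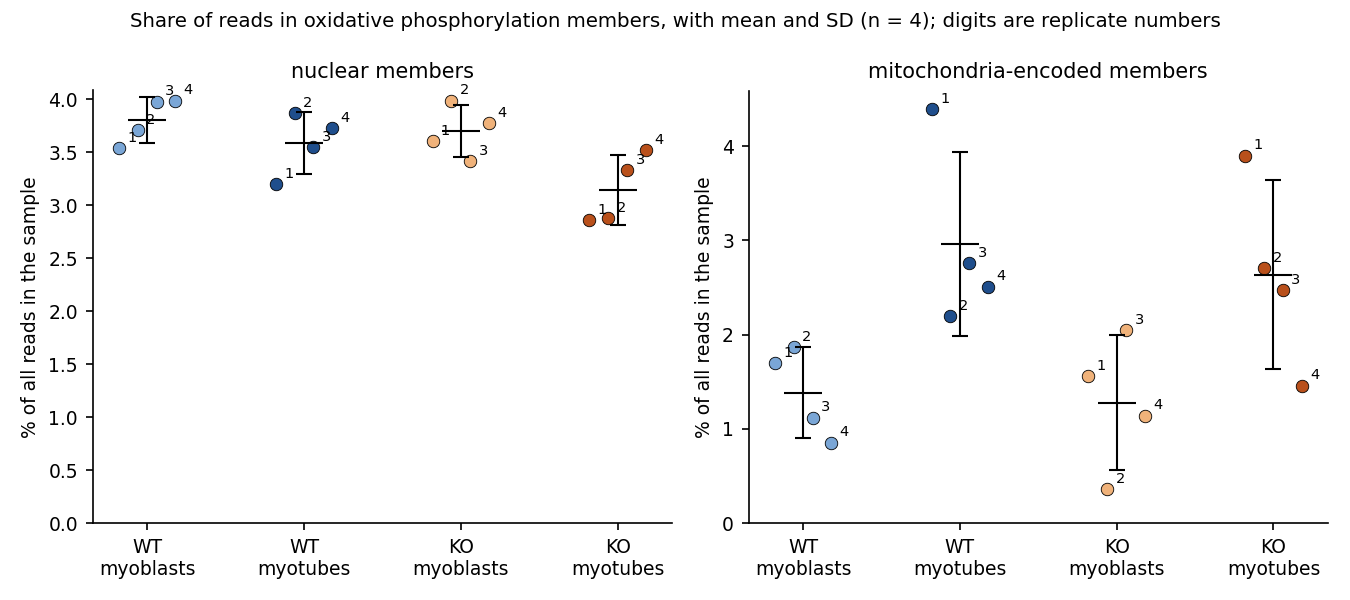
Share of all counted reads, in percent, taken by the nuclear members (left) and the mitochondria-encoded members (right), with 1 point per sample and the group mean and SD (n = 4). The mitochondrial share is 2.20% or more in all WT myotubes and 1.87% or less in all WT myoblasts, and the lowest point, 0.364%, is KO myoblast sample 2.

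Reads from mt-Nd1 and mt-Nd4, membrane subunits of complex I, and mt-Cytb, the cytochrome b of complex III, made up 84.3% to 91.8% of the mitochondria-encoded reads of a sample. On differentiation of WT cells all 11 tested genes had a positive log2 change, 0.93 to 1.77 with a median of 1.40, and 3 rose at an adjusted p under 0.05. Among all genes tested in WT differentiation 13.8% were called higher and 9.16% lower, with a median of -0.01. mt-Nd5, a proton-pumping subunit of complex I, was at 997, 792, 545 and 356 normalized counts in WT myoblasts and 2722, 1964, 2153 and 1820 in WT myotubes (1.77 ± 0.38, adjusted p = 0.00178). mt-Nd4 went from 8603, 9170, 5082 and 3575 to 21883, 14441, 16598 and 13143 (1.40 ± 0.41, adjusted p = 0.0172). In both genes the stages did not overlap, and WT myoblast sample 4 was lowest. mt-Co1, the catalytic subunit of complex IV, was at 873, 1282, 653 and 436 in WT myoblasts and 2191, 1352, 1509 and 1234 in WT myotubes (1.03 ± 0.34, adjusted p = 0.0360), with overlap between the highest myoblast and the lowest myotube. The mt-Nd4 call was lost without WT myoblast sample 3 (1.30) or 4 (1.14) or WT myotube sample 1 (1.25), and the mt-Co1 call without WT myoblast 3 (0.96) or 4 (0.77) or WT myotube 1 (0.86) or 3 (1.04), with adjusted p of 0.0546 to 0.148. The mt-Nd5 call was kept in all 16 omissions of a single library.

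The other 8 mitochondria-encoded genes were not called in WT differentiation, yet the 95% intervals of 7 lay above 0. These were mt-Co2 (1.54, adjusted p = 0.0574), mt-Co3 (1.46, 0.0521), mt-Cytb (1.08, 0.0622), mt-Nd1 (0.93, 0.0928), mt-Nd2 (1.18, 0.0789), mt-Nd3 (1.69, 0.0799) and mt-Nd6 (1.46, 0.0899). mt-Atp6 had 1.14 (-0.17 to 2.45, adjusted p = 0.201). Without KO myotube samples 2 and 4, which are not in this comparison but add to the shared estimate of spread, 9 of the 11 were called at the same log2 changes, mt-Nd1 (adjusted p = 0.0762) and mt-Atp6 (0.0794) remaining uncalled. In 9 of the 11 genes the 4 WT myotube samples were all above the 4 WT myoblast samples, mt-Co1 and mt-Nd6 being the exceptions, and the same held for 16.1% of all genes tested. The calls rested on the spread of all 4 groups: without KO myoblast sample 2, 9 of the 11 were called in WT cells, and without WT myotube sample 1, the highest WT myotube in 11 of 11 genes, 1 was called and the median was 1.11. Without WT myoblast sample 3 or 4, 1 was called as well.

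In KO cells all 11 genes again had a positive change on differentiation, 0.34 to 1.97 with a median of 1.25, and 6 rose: mt-Nd6 (1.97, adjusted p = 0.0170), mt-Nd5 (1.72, 0.00140), mt-Nd4 (1.42, 0.0107), mt-Co1 (1.34, 0.00507), mt-Cytb (1.29, 0.0198) and mt-Nd1 (1.25, 0.0186). Of all genes tested, 17.3% were called higher and 16.1% lower in this comparison. mt-Nd1 was at 13510, 3064, 16283 and 10390 normalized counts in KO myoblasts and 32821, 19187, 19265 and 18487 in KO myotubes, without overlap. mt-Cytb was at 14042, 3876, 17572 and 10350 in KO myoblasts and 40819, 27325, 25873 and 12197 in KO myotubes, with overlap. Only for mt-Nd1 were all KO myotubes above all KO myoblasts, 1 of 11 genes (9.09%), against 14.3% of all genes tested. KO myoblast sample 2 was lowest in its group in 10 of the 11 genes and KO myotube sample 4 in 9. Without KO myoblast sample 2, 4 genes were called, the median fell to 0.72 and 8 of 11 values were positive, and the calls of mt-Cytb (0.83, adjusted p = 0.0850) and mt-Nd1 (0.72, adjusted p = 0.0727) were lost. Both were also lost without KO myotube sample 1 (1.04 and 1.05, adjusted p = 0.0747 and 0.0653), and that of mt-Nd6, which was at 108 normalized counts in KO myotube sample 2, without that sample (1.37, adjusted p = 0.0665), without KO myoblast sample 4 (1.68, adjusted p = 0.0632) or without KO myotube samples 2 and 4 together (1.23, adjusted p = 0.150). The calls of mt-Co1, mt-Nd4 and mt-Nd5 were kept in all single omissions, though that of mt-Nd4 was lost under quantile normalization (1.03, adjusted p = 0.0786).

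Between genotypes no mitochondria-encoded gene was called by limma at either stage, and none had an unadjusted p under 0.05. The median KO to WT difference of the 11 was -0.13 in myoblasts and -0.34 in myotubes. The intervals were wide: that of mt-Nd5 was -0.80 to 0.76 in myoblasts and -0.86 to 0.70 in myotubes, and that of mt-Nd2 was -1.92 to 0.07 in myotubes. Without KO myoblast sample 2 the median in myoblasts was 0.35, so its sign rested on that library. The change on differentiation did not differ between genotypes for any of the 11 by the interaction test (0 called, 0 with an unadjusted p under 0.05).

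**Figure D3:**
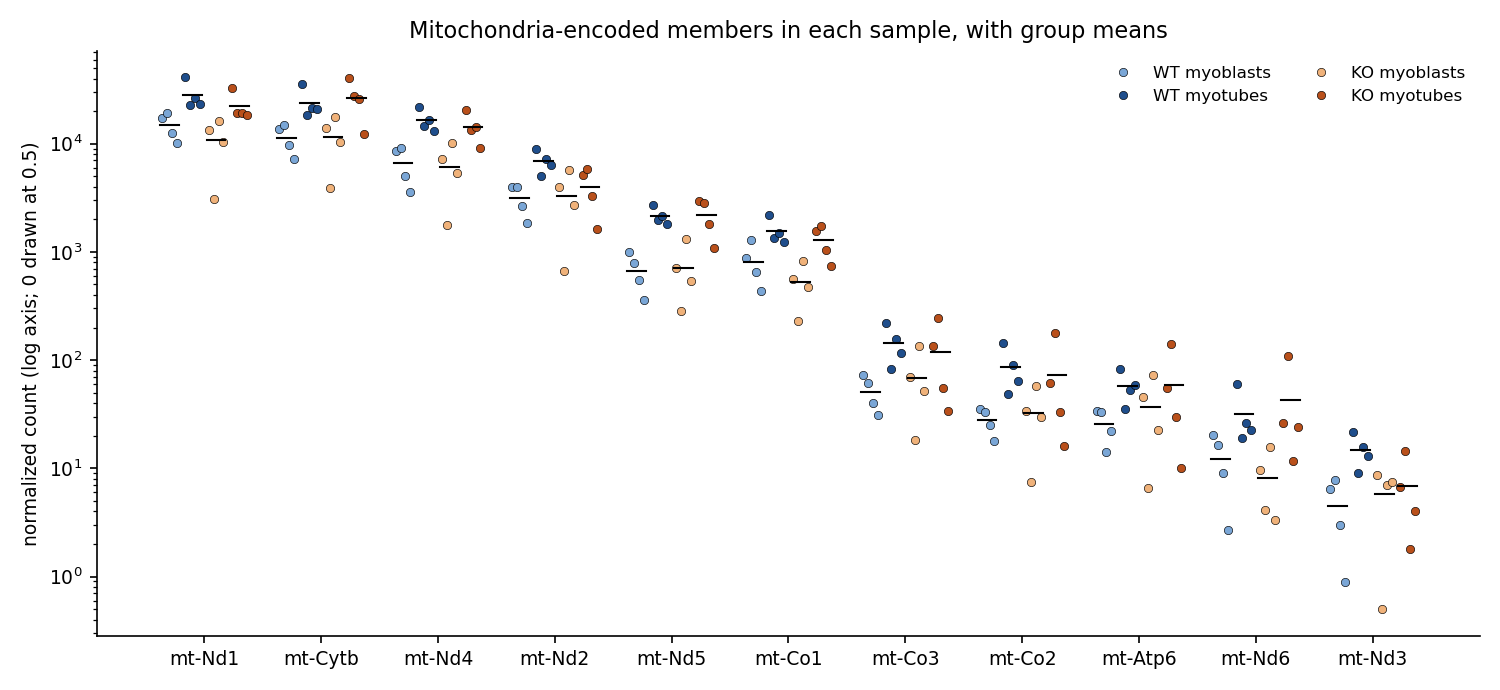
Normalized counts, on a log axis, of the 11 tested mitochondria-encoded genes in each sample of the 4 groups, with group means as bars and 1 value of 0 drawn at 0.5. In 9 of the 11 genes all WT myotube points stand above all WT myoblast points. In KO cells the same holds for 1 of the 11, mt-Nd1, and in 10 of the 11 genes the lowest KO myoblast is sample 2.

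Several mitochondrial genes have near-identical copies elsewhere in the annotated mouse transcripts. Stretches of 31 bases shared with another gene covered 100% of mt-Co2, 99.9% of mt-Co3, 99.5% of mt-Atp6 and 98.1% of mt-Nd3, genes with at most 245 normalized counts in any sample. They covered 63.9% of mt-Co1 and 95.5% of its last 500 bases, 62.8% of mt-Nd4 and 0 of its last 500 bases, and none of mt-Nd1. How reads that fit several places were counted is not given in the sources used here, so values of the first 5 genes are uncertain. mt-Nd4l, at 0 in all samples, and mt-Atp8, at no more than 4.32 normalized counts, did not pass the filter.

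Apart from the 3 muscle isoforms, the nuclear subunits moved little on differentiation of WT cells. Of the 77 tested, Cox6a2, Cox7a1 and Cox8b were called higher and Atp5g1 lower. Counting all 97 tested members, 7 were higher and 2 lower, 7.22% and 2.06%. Without the muscle isoforms the 74 remaining nuclear subunits had changes of -1.09 to 0.51 with a median of -0.09, and 10 had an unadjusted p under 0.05. No subunit of complexes I, II or III was called by limma, and 4, 1 and 2 of them had an unadjusted p under 0.05. These counts hold for rows whose symbol matches the names above. Of 3 rows of these families listed under other symbols and not counted, that of the complex I subunit Ndufb4 (listed as Gm3873) was called higher, from 410 ± 51.9 to 665 ± 98.2 normalized counts (0.69 ± 0.24, adjusted p = 0.0379), a call lost without WT myoblast sample 1, 2 or 3 or WT myotube sample 1, 3 or 4 (adjusted p up to 0.111). Class medians were -0.06 for complex I, -0.23 for II, -0.19 for III, -0.07 for IV and -0.11 for V. These counts moved with single libraries: 13 members were called higher without KO myoblast sample 2, 11 without KO myotube sample 4 and 4 without WT myoblast sample 4, and 6 were called lower without WT myotube sample 2 and 0 without WT myoblast sample 2 or WT myotube sample 1.

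Atp5g1 encodes subunit c, which forms the rotating ring of complex V, and has sister genes Atp5g2 and Atp5g3 for the same protein. It was at 911, 1339, 1088 and 939 normalized counts in WT myoblasts and 224, 727, 566 and 665 in WT myotubes, without overlap (-1.09 ± 0.32, adjusted p = 0.0187). In KO cells it fell from 697, 1066, 594 and 863 to 203, 165, 363 and 434, again without overlap (-1.54 ± 0.32, adjusted p = 9.13e-04). WT myotube sample 1 was far below the others, and without it the WT change was -0.70 (adjusted p = 0.0901), while without WT myoblast sample 2 it was -0.97 (adjusted p = 0.0578). The KO call was kept in all single omissions. Atp5g2 and Atp5g3 were not called on differentiation of either genotype, and Atp5g2 was at 53.4 ± 9.24 in WT myoblasts and 71.0 ± 16.9 in WT myotubes.

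On differentiation of KO cells 5 of the 77 nuclear subunits were called higher and 18 lower, and of all 97 members 11 were higher (11.3%) and 18 lower (18.6%). The lower share of the members is near the 16.1% called lower among all genes. Without the muscle isoforms the median of the 74 was -0.31, against -0.02 over all genes tested, and 59 of the 74 were negative. By complex, 10 of 34 subunits of complex I fell and 2 rose, 1 of 4 fell in complex II, 2 of 9 in complex III, 1 of 15 in complex IV and 4 of 15 in complex V. Class medians were -0.37, -0.34, -0.30, -0.15 and -0.22 for complexes I to V. Without KO myotube sample 4 the members called lower numbered 27, without KO myoblast sample 1 or KO myotube sample 1 they numbered 12, and without KO myotube samples 2 and 4 they numbered 17.

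The subunit with the largest fall was Sdhd, a membrane anchor of succinate dehydrogenase. Its normalized counts were 69.1, 23.2, 29.5 and 40.0 in KO myoblasts and 5.81, 0, 4.50 and 0 in KO myotubes, so the groups did not overlap. In WT cells it was at 42.4, 49.2, 42.0 and 67.7 in myoblasts and 19.9, 6.30, 40.0 and 78.3 in myotubes, a spread of 12.4-fold among the WT myotubes. Its log2 change in KO cells was -3.95 ± 0.65 (adjusted p = 7.82e-05), and that between KO and WT myotubes was -3.42 ± 0.65 (adjusted p = 6.13e-04). The KO myotube samples at 0 are the 2 with the fewest reads, and without them the values were -2.64 (adjusted p = 0.00217) and -2.12 (adjusted p = 0.0160). Since the level is near the floor of 2.70 to 5.99, the size of the fall depends on the constant added before the log2 step, and the KO differentiation change was -4.49 with 0.5 and -2.58 with 5. The other subunits of complex II were not called in any comparison. Sdha, the flavoprotein, was at 603 ± 102 and 562 ± 130 in KO myoblasts and myotubes.

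In complex III, Uqcrc1, a core protein, fell on differentiation of KO cells from 759, 701, 633 and 681 to 301, 447, 236 and 282 normalized counts (-1.17 ± 0.19, adjusted p = 8.62e-05). The second core protein, Uqcrc2, fell from 705, 432, 696 and 573 to 315, 458, 342 and 284 (-0.78 ± 0.19, adjusted p = 0.00295). Uqcrc1 did not overlap between the stages, and Uqcrc2 did because of KO myoblast sample 2 and KO myotube sample 2. Cyc1, the cytochrome c1 of the complex, was at 1802 ± 204 and 1507 ± 425 and was not called. In complex IV, Cox5b fell (-0.59 ± 0.20, adjusted p = 0.0259), but not without KO myoblast sample 1 (-0.56, adjusted p = 0.0669) or 2 (-0.44, 0.0918) or KO myotube sample 1 (-0.56, 0.0561) or 2 (-0.51, 0.0662).

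In complex I the largest falls in KO cells were those of the membrane arm subunits Ndufa1 (-0.81 ± 0.26, adjusted p = 0.0225) and Ndufa11 (-0.74 ± 0.19, adjusted p = 0.00446). Ndufa11 was at 1220, 884, 1049 and 1310 normalized counts in KO myoblasts and 582, 751, 598 and 717 in KO myotubes, without overlap, and its call was kept in all single omissions. The Ndufa1 call was lost without KO myoblast sample 1 (-0.76) or 2 (-0.73) or KO myotube sample 2 (-0.63) or 4 (-0.59), and without both of the latter its change was -0.22 (adjusted p = 0.499). The core subunits Ndufs7, Ndufs8 and Ndufv2 and the accessory subunits Ndufa3, Ndufa5, Ndufa10, Ndufb6 and Ndufs4 were also called lower. Of these calls, that of Ndufv2 was lost in 7 of 16 single omissions and also without KO myotube samples 2 and 4. Those of Ndufa5 and Ndufs4 were lost in 4 each and that of Ndufa10 in 3, while the others were kept in all. Ndufa8, an accessory subunit, rose. It was at 458, 935, 428 and 554 in KO myoblasts and 975, 598, 1348 and 1085 in KO myotubes (0.77 ± 0.23, adjusted p = 0.0150), with overlap. Its call was lost without KO myoblast sample 1 (0.67) or 3 (0.63) or KO myotube sample 3 (0.60).

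In complex V, Atp5j, coupling factor 6 of the peripheral stalk, fell on differentiation of KO cells (-0.88 ± 0.28, adjusted p = 0.0193). This call was lost without KO myoblast sample 2 (-0.71, adjusted p = 0.0684) or 4 (-0.82, 0.0572) or KO myotube sample 2 (-0.66, 0.0693), and without KO myotube samples 2 and 4 it was -0.46 (adjusted p = 0.248). Atp5a1, a subunit of the catalytic head, and Atp5d were called lower as well. The Atp5a1 call was lost in 4 of 16 single omissions, and that of Atp5d was kept in all. Atp5b, the catalytic beta subunit of the head, was at 3694 ± 887 and 3240 ± 365 without a call.

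The differentiation comparisons do not share samples. Of the members called higher, 6 were called in both, 6 of 7 in WT cells and 6 of 11 in KO cells: Cox6a2, Cox7a1, Cox8b, mt-Co1, mt-Nd4 and mt-Nd5. Of those called lower, Atp5g1 was called in both, 1 of 2 in WT cells and 1 of 18 in KO cells. Among all genes tested, 986 were called higher in both, 66.3% of those in WT cells and 53% of those in KO cells, and 580 lower in both, 58.8% and 33.5%. No member was called in opposite directions.

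**Figure D4:**
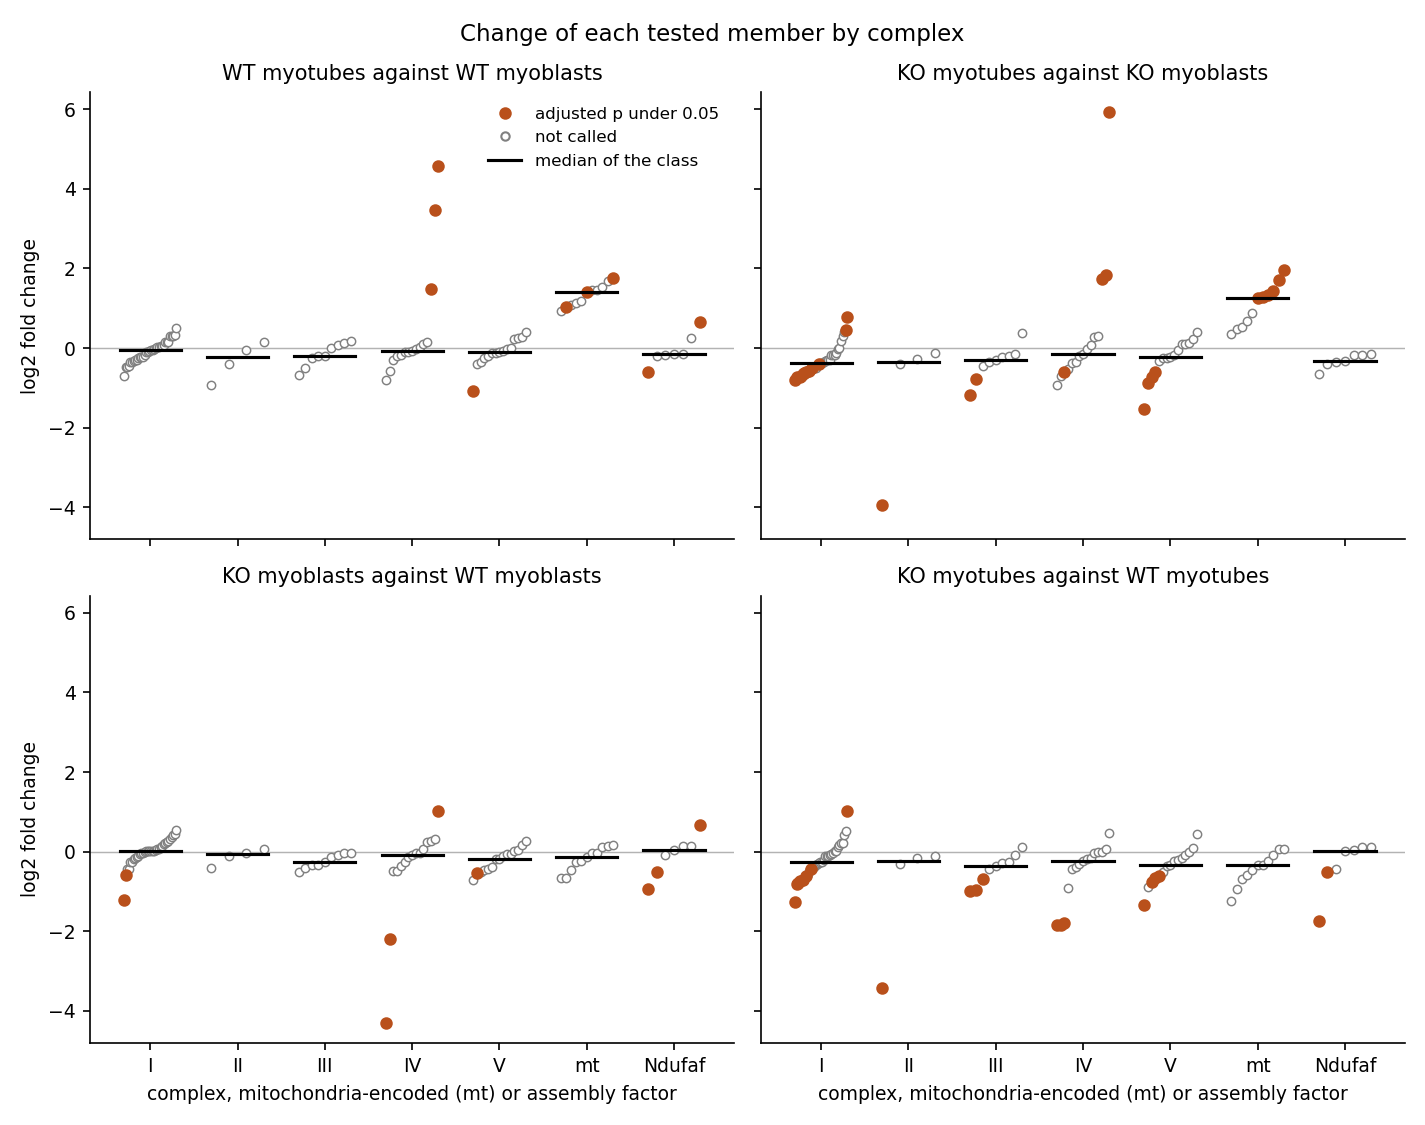
Log2 fold changes of each tested member, grouped by complex (I to V), mitochondria-encoded genes (mt) and assembly factors (Ndufaf), in the 2 differentiation and the 2 genotype comparisons, with filled points at an adjusted p under 0.05 and bars at the class medians. The mt medians are 1.40 and 1.25 on differentiation, while the medians of complexes I to V lie between -0.37 and 0.02 in all 4 panels.

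Between KO and WT myoblasts, 2 of 97 members were higher and 7 lower, 2.06% and 7.22%, where 7.26% and 8.50% of all genes were called. Beside the 3 isoforms described above, these were Ndufs6 and Ndufc1 of complex I, Atp5k of complex V and the assembly factors Ndufaf3, Ndufaf4 and Ndufaf7. The median over the 77 nuclear subunits was -0.05, and was 0.01 with scaling to total counts and -0.00 with quantile normalization. Groups did not overlap in 19 of the 97 members, or 19.6%, and in 26.8% of all genes tested, and all 9 called members were among the 19. The number called lower was 4 without WT myoblast sample 3 or 4, and the number called higher was 1 without any of WT myoblasts 1 to 4 or KO myoblasts 1 or 3 and 0 without KO myoblast 4. None of complexes II and III was called by limma (0 and 1 with an unadjusted p under 0.05).

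Ndufs6, an accessory subunit of the NADH-oxidizing part of complex I, had the largest difference outside complex IV in myoblasts. Its normalized counts were 1202, 1375, 1926 and 1670 in WT myoblasts and 661, 623, 580 and 770 in KO myoblasts (-1.21 ± 0.32, adjusted p = 0.00998). In myotubes they were 480, 1207, 1165 and 1142 in WT and 342, 194, 473 and 749 in KO samples (-1.26 ± 0.32, adjusted p = 0.00630). The myoblast groups did not overlap, and the myotube groups overlapped through WT myotube sample 1 (480) and KO myotube sample 4 (749). Both calls were kept in all single omissions. Ndufc1 was at 935 ± 91.6 in WT and 627 ± 79.1 in KO myoblasts (-0.58 ± 0.17, adjusted p = 0.0197), a call lost without WT myoblast sample 1 (-0.57), 3 (-0.55) or 4 (-0.56) or KO myoblast sample 2 (-0.48). Atp5k, subunit e of the ATP synthase, was at 1998 ± 265 and 1368 ± 35 (-0.54 ± 0.16, adjusted p = 0.0250), a call lost without WT myoblast sample 3 (-0.49) or 4 (-0.48) or KO myoblast sample 1 (-0.52), 3 (-0.54) or 4 (-0.55).

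Ndufaf3 encodes an early assembly factor of complex I that works with Ndufaf4. It was at 62.7, 63.7, 74.1 and 59.7 normalized counts in WT myoblasts and 86.3, 121, 117 and 93.1 in WT myotubes, against 35.9, 27.4, 32.1 and 40.0 in KO myoblasts and 31.9, 33.6, 34.2 and 22.0 in KO myotubes. KO samples were below all WT samples at both stages. It rose in WT cells (0.66 ± 0.21, adjusted p = 0.0306), and was lower in KO myoblasts (-0.93 ± 0.21, adjusted p = 0.00386) and KO myotubes (-1.75 ± 0.21, adjusted p = 6.58e-06). Of the 7 Ndufaf genes, none was called on differentiation of KO cells by limma, and 1 had an unadjusted p under 0.05. The rise of Ndufaf3 in WT cells was lost without WT myoblast sample 1 (0.65), 2 (0.65) or 4 (0.62) or WT myotube sample 2 (0.59) or 3 (0.60). Both genotype calls were kept in all single omissions.

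Ndufaf4 was lower in KO myoblasts (126 ± 18.8 against 179 ± 19.6, -0.51 ± 0.16, adjusted p = 0.0292) and KO myotubes (111 ± 4.40 against 161 ± 17.5, -0.52 ± 0.16, adjusted p = 0.0202). The first was lost without WT myoblast sample 3 (-0.51) or 4 (-0.44) or KO myoblast sample 1 (-0.47), 2 (-0.48) or 3 (-0.49), and the second without WT myotube sample 3 (-0.49) or 4 (-0.49). Ndufaf7, a methyltransferase needed for complex I assembly, was higher in KO myoblasts (82.5 ± 8.06 against 52.3 ± 7.89, 0.66 ± 0.20, adjusted p = 0.0277), a call lost without WT myoblast sample 2 (0.64) or 3 (0.56) or KO myoblast sample 1 (0.60), 3 (0.65) or 4 (0.66). Ndufaf2, a late assembly factor, fell on differentiation of WT cells from 131 ± 21.8 to 85.3 ± 15.5 (-0.61 ± 0.20, adjusted p = 0.0306), with overlap. That call was lost without WT myoblast sample 2 (-0.55), 3 (-0.58) or 4 (-0.59) or WT myotube sample 1 (-0.55), 3 (-0.60) or 4 (-0.58).

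Between KO and WT myotubes, 1 of 97 members was higher and 20 were lower, 1.03% and 20.6%, where 9.74% of all genes were called higher and 13.7% lower. The nuclear subunits had a median of -0.28, with 63 of 77 negative, against -0.07 over all genes tested. The subunits called lower were 7 of 34 in complex I, 1 of 4 in complex II, 3 of 9 in complex III, 3 of 15 in complex IV (the muscle isoforms) and 4 of 15 in complex V, together with Ndufaf3 and Ndufaf4. Of the 20 lower calls, 15 were kept in all 16 omissions of a single library and 18 without KO myotube samples 2 and 4. The higher calls numbered 3 without KO myotube sample 1 and 4 without KO myotube sample 2. These samples are also in the KO differentiation comparison, so the lower calls of both share the KO myotubes.

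In complex I, Ndufs6 was lowest in KO relative to WT myotubes, and Ndufs8, an iron-sulfur core subunit, was next at 603, 901, 729 and 688 normalized counts in WT and 410, 509, 336 and 418 in KO myotubes, without overlap (-0.80 ± 0.17, adjusted p = 0.00130). Ndufa3, Ndufb6, Ndufc1, Ndufs4 and Ndufs7 were the other subunits called lower. The Ndufb6 call was lost in 10 of 16 omissions of a single library and also without KO myotube samples 2 and 4. The Ndufs7 call was lost in 3 of 16. Ndufa8 was the member called higher. It was at 457, 587, 414 and 437 in WT myotubes, against 598 to 1348 in KO myotubes, so every KO myotube was above every WT myotube (1.03 ± 0.23, adjusted p = 0.00274), and this call was kept in all single omissions.

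In complex III, Uqcrc1 was at 437, 798, 711 and 567 normalized counts in WT myotubes and 301, 447, 236 and 282 in KO myotubes (-0.99 ± 0.19, adjusted p = 7.95e-04), overlapping through WT sample 1 and KO sample 2. Uqcrc2 was at 606, 579, 814 and 677 in WT and 284 to 458 in KO myotubes, without overlap (-0.95 ± 0.19, adjusted p = 9.08e-04). Uqcrfs1, the Rieske iron-sulfur protein that passes electrons on to cytochrome c1, was called lower too (574 ± 109 and 358 ± 61.9), but not without KO myotube samples 2 and 4.

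In complex V, Atp5j was at 231, 175, 154 and 192 normalized counts in WT myotubes and 64.9, 45.2, 145 and 63.9 in KO myotubes, without overlap (-1.35 ± 0.28, adjusted p = 0.00137). KO sample 3 was near the WT samples, and without KO myotube samples 2 and 4 the difference was -0.93 (adjusted p = 0.0310). Atp5k was at 1674, 2119, 2040 and 1991 in WT and 1057, 1000, 1074 and 1549 in KO myotubes, without overlap (-0.76 ± 0.16, adjusted p = 0.00166). Atp5d and Atp5j2 were the other subunits called lower. The Atp5d call was lost in 6 of 16 omissions of a single library and the Atp5j2 call in 1. Markers of differentiated muscle and of proliferating cells were both lower in KO than in WT myotubes, by the sums given above, and their part in these differences was not tested.

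**Figure D5:**
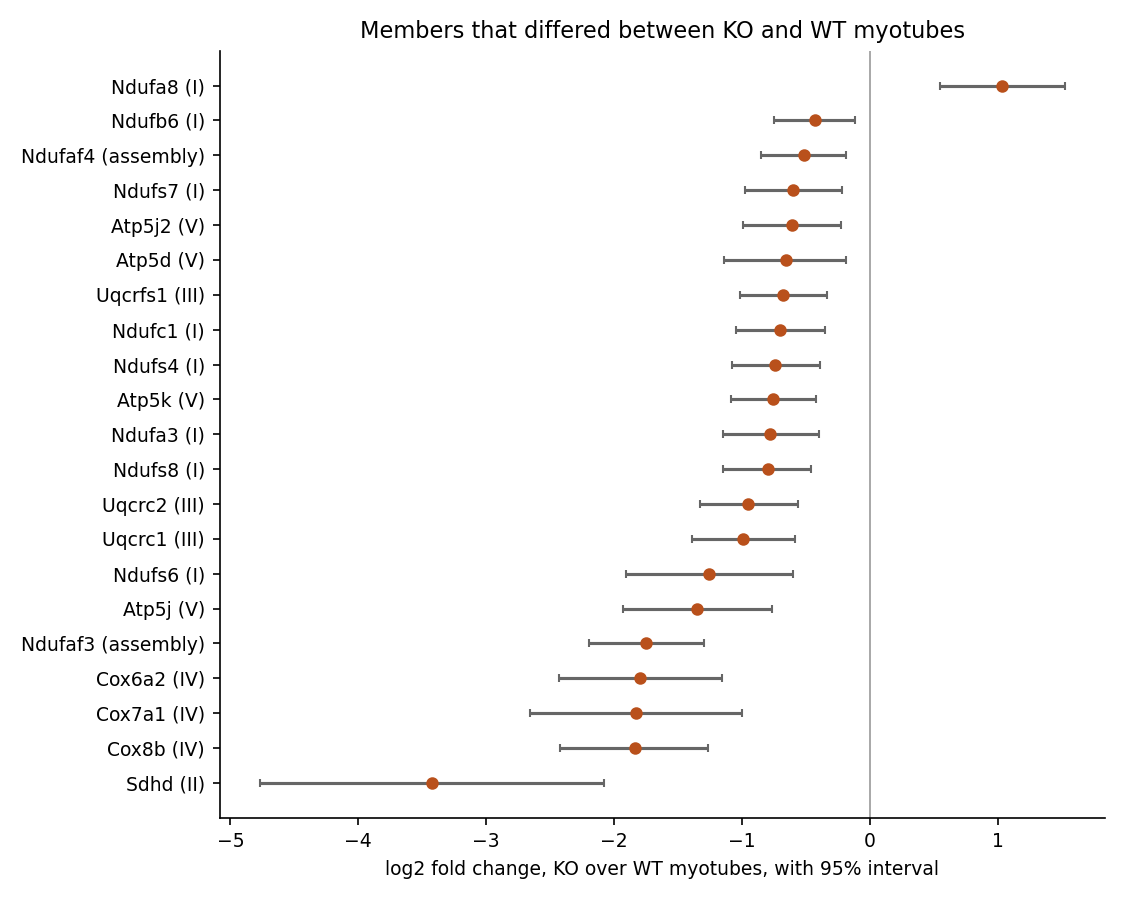
Log2 fold changes of the 21 members called between KO and WT myotubes, with 95% intervals and the complex of each in brackets, sorted by value. Ndufa8 alone is to the right of 0, at 1.03, and Sdhd has the largest and least precise difference, at -3.42.

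All 7 members called lower in KO myoblasts were also called lower in KO myotubes, 7 of 7 and 7 of 20: Atp5k, Cox7a1, Cox8b, Ndufaf3, Ndufaf4, Ndufc1 and Ndufs6. Among all genes tested, 557 were called lower at both stages, 60.9% of the 915 lower in KO myoblasts and 37.8% of the 1472 lower in KO myotubes. The genotype comparisons at the 2 stages do not share samples, but all KO samples come from the same KO line. Cox6a2 was called higher in KO myoblasts and lower in KO myotubes.

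The interaction test asked whether the change on differentiation differed between genotypes. Of 97 members, 1 had a larger and 1 a smaller change in KO cells, 1.03% each, where 1.97% and 1.48% of all genes were called. Cox6a2 rose less in KO cells (-2.82 ± 0.43, adjusted p = 3.45e-04). Cox8b had a larger log2 change in KO cells (2.45 ± 0.39, adjusted p = 5.69e-04), which depends on the constant added to the count, since KO myoblasts were at 0: it was 3.40 with 0.5 (adjusted p = 2.51e-05) and 0.46 with 5 (adjusted p = 0.482). On the scale of normalized counts the rise was from 18.8 to 223 in WT cells and from 0 to 60.7 in KO cells. The number called with a smaller change was 2 or 3 without any of WT myotubes 1 or 2, KO myoblast 2 or KO myotubes 1 to 4, and with a larger change 2 without KO myoblast 2 or KO myotube 2. For complexes I, II, III and V no subunit was called by limma, and 6, 1, 2 and 0 had an unadjusted p under 0.05, so a difference between the genotypes in the change of the other subunits was not detected.

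Of the nuclear members that were not tested, Cox8c was at 0 in all samples, Cox6b2 and Cox7b2, isoforms known from testis, had at most 3 and 1 reads in any sample, and Ndufs5 was at 0 to 22.0 normalized counts. Atp5s and Atp5sl were tested and not called by limma in any comparison (0 of 2 in each, with 1 unadjusted p under 0.05, in myoblasts). Stretches shared with other genes covered over 50% of the last 500 bases of 5 nuclear members (Atp5h, Atp5l, Atp5o, Ndufs3 and Uqcrb), whose values are uncertain for that reason, and none of these was called in any comparison. In 51 of the 92 nuclear members no such stretch lay in the last 500 bases. Some of them share stretches further from the end, such as Ndufa12 (29.3% over the whole transcript).

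Promoter windows were available for 67 of the 83 nuclear subunit genes. The NRF1 motif (GCATGCG, both strands), named for a factor known to bind promoters of respiratory genes, was found in 10 of the 67, or 14.9%, against 3.64% of all 27025 promoters of the same length. The core motif of ETS factors (CCGGAAG, both strands) was found in 15, or 22.4%, against 9.12%. E-boxes were found in 47, or 70.1%, against 72.1%, and CAGCTG, which is a form of CANNTG, in 6, or 8.96%, against 16.1%. The MEF2 motif was found in none, against 1.89%. Neither the NRF1 nor the ETS motif was found in the windows of Cox7a1, Cox8b and the widely expressed Cox7a2. The window of Cox6a1 holds both and that of Cox8a the ETS motif. Cox7a2 and Cox8a each have 1 E-box in their windows, and Cox6a1 has 0.

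Genes that build or feed the complexes were examined from lists. The first held 40 assembly factors and related genes, among them cytochrome c (Cycs) and Atpif1, an inhibitor of complex V. The others held 14 enzymes of the TCA cycle and 21 genes that control mitochondrial gene expression. Of these lists, 39, 14 and 17 genes were tested. The shares called among all genes were those given above for each comparison, 13.8% higher and 9.16% lower in WT differentiation, 17.3% and 16.1% in KO differentiation, 7.26% and 8.50% in myoblasts and 9.74% and 13.7% in myotubes. Of the first list, 2 genes were higher and 4 lower on differentiation of WT cells, and 3 and 9 in KO cells. The counts were 0 and 1 in KO against WT myoblasts and 0 and 10 in KO against WT myotubes. Without KO myotube samples 2 and 4 the last count was 1 and 3, and that in KO differentiation 2 and 6. The 4 lower in WT cells were Atpif1, Coa7, Cox10 and Cycs, the last at -0.51 (adjusted p = 0.0413). Coa3, an assembly factor of complex IV, was lower in KO myoblasts (-1.01, adjusted p = 0.00190). Atpaf1, which assembles the head of complex V, was lower in KO than in WT myotubes (-1.96, adjusted p = 0.0227), but was at -0.60 (adjusted p = 0.143) without that pair of samples, and the call was also lost without WT myotube sample 2 (-1.87, adjusted p = 0.0526) or 4 (-1.90, adjusted p = 0.0571).

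Of the TCA cycle enzymes, 0 were called on differentiation of WT cells by limma (3 with an unadjusted p under 0.05), and 5 were lower in KO cells, 1 in KO myoblasts and 5 in KO myotubes. Idh3a, the catalytic subunit of NAD-dependent isocitrate dehydrogenase, was lower in KO myotubes (-1.14, adjusted p = 4.53e-04). Without KO myotube samples 2 and 4, 2 enzymes were called higher and 2 lower between the myotubes. On differentiation the counts were then 0 and 4 in KO cells and 0 and 1 in WT cells. The median in KO cells moved from -0.32 to -0.19, and Fh1 from -1.43 (adjusted p = 0.0351) to -0.42 (0.217). Of the genes for control of mitochondrial expression, 1 was higher and 0 lower on differentiation of WT cells, and 1 and 2 in KO cells. By limma, 0 and 0 were called in KO against WT myoblasts (1 with an unadjusted p under 0.05) and 0 and 3 in KO against WT myotubes. Without KO myotube samples 2 and 4 the counts were 2 and 0, 1 and 1, 0 and 1, and 0 and 2 in the same order. The lower calls of Ssbp1 and Tefm in KO cells were then lost (adjusted p = 0.221 and 0.198), as were those of Gabpa and Tefm between the myotubes (0.295 each). The median of the list between the myotubes moved from -0.36 to -0.10. Twnk, the mitochondrial DNA helicase, listed under its older symbol Peo1, was called higher on differentiation of both genotypes, by 0.62 in WT cells (adjusted p = 0.0486) and by 1.05 in KO cells (adjusted p = 0.00101). The WT call was lost in 10 of 16 omissions of a single library: WT myoblast 2, 3 or 4, WT myotube 1, 2 or 4, KO myoblast 1, 3 or 4, or KO myotube 1 (0.51 to 0.66). Ppargc1a, a coactivator of respiratory genes, did not pass the filter.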

How the data were processed

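The values were those deposited by the authors in a single table of log2(normalized count + 1) for 31053 genes in 16 samples. Per the labels and the paper's methods, 3′ mRNA libraries were made from total RNA and sequenced single-end. The submitters' processing notes name bcl2fastq, STAR 2.6.0a, HTSeq and the genome build mm10 (GRCm38). The normalization tool, the strand setting and the treatment of reads that map to several places are not given in the sources used here. The samples were grouped by their titles.

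Values were returned to normalized counts, and whole reads were recovered from their steps (tolerance 0.01) for read totals and for the floor of 3 reads. Floors cover counting error only. The 10767 genes that reached 10 normalized counts in 4 or more samples were tested on the log2 scale with a pseudocount of 1, which understates changes of low genes, using limma 3.58.1 in R 4.3.3 with 4 group means, all 16 samples and a mean-variance trend. Calls were made below 0.05 after Benjamini-Hochberg adjustment over all genes tested, and the 5 comparisons were adjusted separately. Standard errors, 95% intervals and two-sided p-values come from this model, and means ± SD are of normalized counts.

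Members and lists were chosen with earlier results of these data known. Named were the cytochrome c oxidase isoforms and their relatives, the mitochondria-encoded genes, and up to 2 called members with the largest changes in each direction, class and comparison. Ndufaf4, Ndufc1, Sdha, Cyc1, Atp5b, Atp5g2 and Uqcrfs1 were given values beyond this rule where it did not name them, after their values were seen. Promoters were RefSeq windows of GRCm38.p6, with the first listed start site of a gene, and shared stretches were counted over GENCODE M21 transcripts. Alternatives were 4 scalings, pseudocounts of 0.5 and 5, no filter or a minimum of 50, the replicate number as a block, sample weights, fits of 8 samples, other thresholds and each library left out. Leaving out KO myotube samples 2 and 4 was added after seeing the data. The values of 1 member, which is included in the counts, are not reported here.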

Additional observations from a re-analysis of the deposited data

Results flagged for a closer look

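The change of 2 muscle isoforms on differentiation differed between WT and KO cells by the interaction test of limma. Cox6a2 rose less in KO cells (-2.82 on the log2 scale), and Cox8b had a larger log2 change in KO cells (2.45), for which KO myoblasts at 0 were the starting level.

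Among the named members, 148 groups of 4 samples were examined for an outlying sample. Its gap to the nearest other, relative to the group's range, had to exceed Dixon's 95% critical value. Such a sample was found in 8 groups, where chance gives about 1 in 20. The mitochondria-encoded cases were mt-Cytb at 35814 normalized counts in WT myotube sample 1, mt-Nd1 at 32821 in KO myotube sample 1 and mt-Nd6 at 108 in KO myotube sample 2, each above the rest of its group. The nuclear cases above their group were Atp5k at 1549 in KO myotube sample 4 and Ndufaf4 at 154 in KO myoblast sample 4. Those below their group were Cox6a1 at 2799 in WT myoblast sample 2, Ndufc1 at 508 in KO myoblast sample 2 and Ndufs6 at 480 in WT myotube sample 1.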

How the results depend on the processing

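Numbers of members called are given as higher and lower. In WT differentiation they were 7 and 2, and became 19 and 14 with sample weights, 15 and 7 with only the 8 samples compared, 3 and 0 at an adjusted p under 0.01, 14 and 6 without KO myotube samples 2 and 4, and 1 lower with a log2 change of at least 1. In KO differentiation (11 and 18) they were 7 higher with 8 samples, 5 and 9 at 0.01, and 3 lower with a log2 change of at least 1. In KO against WT myoblasts (2 and 7) they were 5 and 23 with weights, 11 lower with 8 samples, 0 and 4 at 0.01, and 1 and 3 with a log2 change of at least 1. In KO against WT myotubes (1 and 20) they were 2 higher with weights and 7 lower with a log2 change of at least 1. For the interaction (1 and 1) they were 2 lower with either total scaling, quantile normalization, a minimum of 50 or KO myotube samples 2 and 4 left out, 2 and 7 with weights, and 0 higher with a pseudocount of 5. The cause was not tested, beyond the stricter thresholds themselves.

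With 1 library left out the ranges were 4 to 13 and 0 to 6 in WT differentiation, 8 to 11 and 12 to 27 in KO differentiation, 0 to 3 and 4 to 8 in myoblasts, 1 to 4 and 16 to 25 in myotubes, and 1 to 2 and 1 to 3 for the interaction. Of the 98 single gene values followed, those that turned in sign were uncalled. In KO differentiation mt-Atp6 was -0.07 and mt-Nd3 -0.62 with weights, and mt-Nd3 was -0.12 without KO myotube samples 2 and 4. With 1 library left out, mt-Atp6 ranged from -0.10 (without KO myoblast 2) to 1.16, mt-Nd2 from -0.15 (KO myoblast 2) to 0.88 and mt-Nd3 from -0.44 (KO myoblast 2) to 0.74 in that comparison, and mt-Atp6 and mt-Nd3 were also below 0 without KO myotube 2. Cox6a1 ranged from -0.02 (without WT myotube 2) to 0.25 in WT differentiation and from -0.16 to 0.10 (WT myotube 2 or KO myotube 2) between KO and WT myotubes, where Cox8a ranged from -0.54 to 0.13 (KO myotube 1).

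Same-numbered samples deviated together with a mean correlation of 0.033 (-0.223 to 0.369 over 24 pairs), against -0.0108 for other numbers, so the numbers were not taken to pair the samples. With the replicate block the counts were 10 and 2, 10 and 19, 2 and 7, 1 and 22, and 1 and 1 in the order above. Depth limits members near 3 reads, such as Sdhd, Cox7a1 and mt-Nd3, and KO myotubes 2 and 4 most of all.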

Other observations

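Nuclear subunits of a group often shared their highest or lowest library. Of the 77 tested, the library most often highest was WT myoblast sample 3 (36), WT myotube sample 2 (36), KO myoblast sample 2 (38) and KO myotube sample 4 (41). The library most often lowest was WT myoblast sample 1 (45), WT myotube sample 1 (46), KO myoblast sample 3 (40) and KO myotube sample 2 (32). A library could be both, as KO myoblast sample 2 was also lowest in 23. Of the 11 mitochondria-encoded genes, WT myotube sample 1 was highest in 11, KO myoblast sample 3 in 10 and KO myotube sample 2 in 7, while KO myoblast sample 2 was lowest in 10, WT myoblast sample 4 in 10, KO myotube sample 4 in 9 and WT myotube sample 2 in 8. Genes of 1 library are not independent replicates, and no test was made of this.

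The median ratio of the highest to the lowest sample over the nuclear subunits was 1.37 in WT myoblasts, 1.54 in WT myotubes, 1.42 in KO myoblasts and 1.69 in KO myotubes. In KO myotubes 22 of 76 subunits spanned more than 2-fold, against 0 of 77 in WT myoblasts, and Cox7c, a small subunit of complex IV, spanned 6.74-fold.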
